A study of Mus musculus with 6 samples.

Results

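Semaphorins, plexins, ephrins, EPH receptors, SLITs and ROBOs are the ligands and receptors first known for steering growing axons, and they were examined here in mouse mesangial cells treated with TGF-β1. The group was taken by gene symbol alone, as every row of the RNA-Seq table whose symbol was that of a class 3 to class 7 semaphorin, a plexin A to D, an EPHA or EPHB receptor, an ephrin-A or ephrin-B, SLIT 1 to SLIT 3 or ROBO 1 to ROBO 4. This gave 54 genes of 19730 rows, namely 19 semaphorins, 9 plexins, 8 ephrins, 12 EPH receptors, 3 SLITs and 3 ROBOs. No row matched Robo4, Sema5b, Epha6 or Epha8, which were not analysed here, so counts and sums of their families leave them out. Mesangial cells hold the capillary loops of the glomerulus, the filter of the kidney, and are contractile, and TGF-β1 is a growth factor central to renal scarring. All 6 libraries came from primary mesangial cells at passage 3 to 6, grown in high-glucose medium (25.5 mM) with 20% foetal bovine serum. The 3 TGF-β1 libraries came from cells kept for 72 h with TGF-β1 at 10 ng/ml, and the 3 Control libraries carried the label Control with no further detail of a vehicle. The strain, sex and age of the mice, and whether the 3 libraries of a group were separate cultures, are not given in the sources used here, so p-values measure the spread between these libraries, which may be technical.

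Semaphorins are secreted (class 3) or membrane-bound (class 4 to class 7) proteins that signal through plexins, whose cytoplasmic part acts on small GTPases. Class 3 semaphorins mostly reach plexins through the co-receptors neuropilin-1 and neuropilin-2, whereas ephrins and EPH receptor kinases sit on opposing cells and signal in both directions on contact, and secreted SLITs act on ROBO receptors. In the kidney these systems are known from branching of the ureteric bud, from glomerular capillary growth and from podocyte shape, and ephrin-B2 is a known protein of pericytes and mesangial cells.

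More guidance genes were lower than higher with TGF-β1, and those called lower came from the semaphorins, the plexins, the ephrin-As and both kinds of EPH receptor. The secreted semaphorins Sema3c and Sema3d, the receptors Epha4, Epha7, Ephb6 and Plxna3, and the ligands Sema4b and Efna5 fell at least 2-fold, whereas the ligand Efnb2 and the receptors Epha2 and Plxnd1 rose at least 2-fold. Expression was given as FPKM, the fragments per kilobase of transcript and per M (mega) of mapped fragments, so levels are per length. Changes were tested on the log2(FPKM + 1) scale with limma across all rows, a scale that understates the change of low genes. Of the 54 genes, 33 had a mean of at least 1 FPKM and were tested with 11898 rows in all. A gene was called changed at an adjusted p under 0.05. Of the 33, 7 were called higher and 15 lower with TGF-β1, together 22 or 66.7%, and 24 had an unadjusted p under 0.05. Across all rows tested, 48.1% were called, 24.5% higher and 23.6% lower. At least 2-fold changes, counted on the log2(FPKM + 1) scale, were called in 11 of the 33 guidance genes, or 33.3%, against 13.9% of all rows. By the ratio of mean FPKM, 4 further called genes changed more than 2-fold. Ephb2 rose 2.59-fold, and Sema3b, Sema4d and Plxnb1 fell 2.60-fold, 2.73-fold and 2.28-fold. The 3 Control and the 3 TGF-β1 values did not overlap in 27 of the 33, or 81.8%, against 59.4% of all rows. Counts given below for single families rest on few genes and have these same shares of all rows as their background. The median log2 change was -0.44 over the 33 genes and -0.0169 over all rows tested. When libraries were scaled to a common sum over protein-coding rows of at least 300 nt, an alternative chosen after seeing the data, the split became 4 higher and 18 lower. All rows shifted in the same direction under that scaling, to 2015 higher and 3927 lower of 11898, and their median moved by -0.17. Of the 33 genes tested, Sema3d and Ephb2 passed the filter on low values only through the group in which they were higher, and of the other 31 genes 20 were called.

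**Figure D1:**
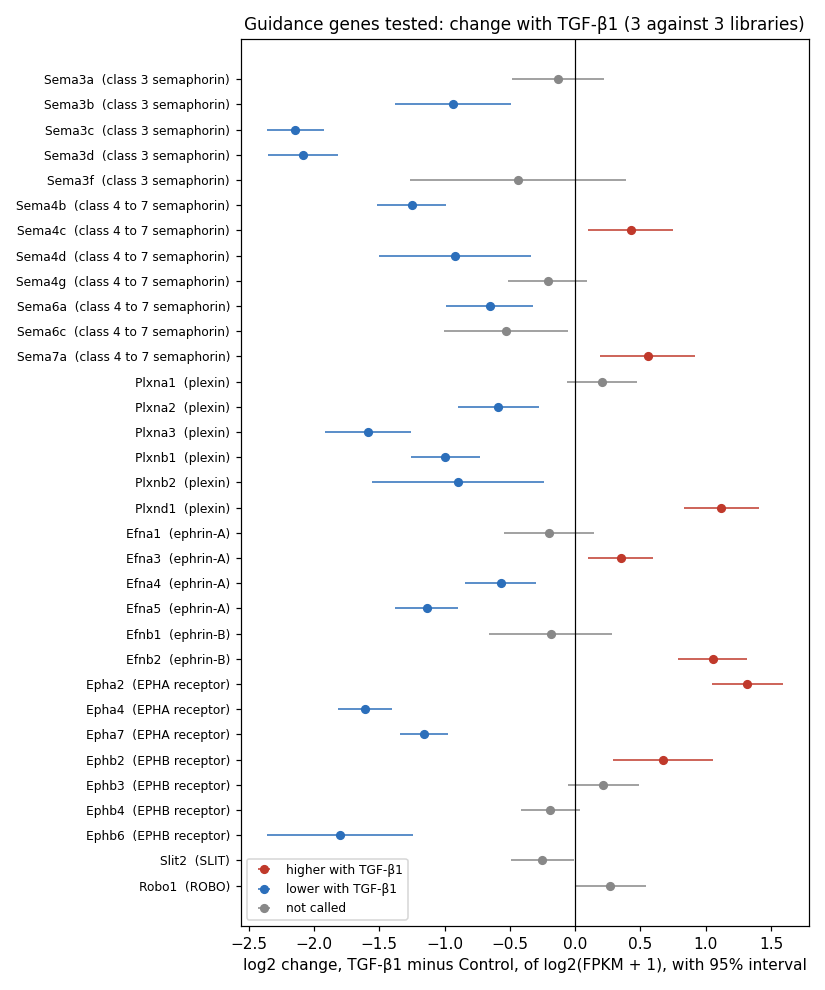
Log2 change in expression, TGF-β1 minus Control, on the log2(FPKM + 1) scale for the 33 guidance genes tested, with 95% intervals from limma over 3 against 3 libraries. Red points were called higher (7 genes), blue points lower (15 genes) and grey points were not called (11 genes), and Sema3c at -2.14 and Epha2 at 1.32 mark the ends of the range.

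In bulk RNA, fewer cells of a type and less RNA per cell cannot be told apart. Depth, recovered from the steps between the lowest FPKM values, was 10.1 to 11.1 M fragments per library, with an assumed fragment length of 200 nt, so 1 FPKM in a 2 kb transcript rested on 18.2 to 19.9 fragments. TGF-β1 replicate 2 stood apart in base composition over all rows. Over 10116 rows with a GC value, its deviation from the group mean fell with transcript GC (Spearman's rank correlation -0.391), while the other libraries lay between -0.0903 and 0.318. Over the 29 tested guidance genes with a GC value, the correlation was lowest in Control replicate 1 (-0.389). It was -0.2345 in TGF-β1 replicate 2 and 0.153 to 0.25 in the others. Without TGF-β1 replicate 2, 22 guidance genes were again called, 6 higher and 16 lower, beside 2589 higher and 2580 lower of 11898 rows. Fragment numbers given below are approximate and hold only if a row's value is that of the transcript it names. The mesangial and pericyte markers, 8 in all, summed to 1423 to 1721 FPKM in Control and 5359 to 6297 FPKM with TGF-β1. Acta2, Tagln and Mcam rose, from 997 to 3887, 512 to 1756 and 16.1 to 77.9 FPKM on average, and Pdgfrb fell, from 37.5 to 29.2 FPKM (log2 change -0.34, adjusted p = 0.0396, limma). Itga8 and Des, which also define these cells, stayed at or under 0.55 FPKM in every library.

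The stretches upstream of the start of 4 genes are shown because Sema3c and Sema3d had the largest falls among the tested genes, Epha2 the largest rise of a receptor and Efnb2 the largest rise of a ligand. Each line holds the 250 bases before the RefSeq start on GRCm38.p6, with capitals for CAGAC or its reverse complement GTCTG, the short DNA sequence that SMAD proteins, the transcription factors of TGF-β signalling, are known to bind.
Sema3c, chr5:17574566-17574815, plus strand: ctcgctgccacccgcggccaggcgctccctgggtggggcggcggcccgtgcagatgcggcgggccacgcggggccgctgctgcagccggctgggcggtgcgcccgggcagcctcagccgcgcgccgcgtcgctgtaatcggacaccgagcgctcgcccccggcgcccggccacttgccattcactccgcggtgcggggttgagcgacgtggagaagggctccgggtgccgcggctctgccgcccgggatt
Sema3d, chr5:12382916-12383165, plus strand: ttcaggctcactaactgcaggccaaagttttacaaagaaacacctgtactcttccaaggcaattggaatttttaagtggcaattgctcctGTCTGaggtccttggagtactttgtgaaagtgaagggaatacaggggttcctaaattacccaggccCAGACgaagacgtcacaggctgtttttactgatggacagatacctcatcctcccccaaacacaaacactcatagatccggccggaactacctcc
Epha2, chr4:141300971-141301220, plus strand: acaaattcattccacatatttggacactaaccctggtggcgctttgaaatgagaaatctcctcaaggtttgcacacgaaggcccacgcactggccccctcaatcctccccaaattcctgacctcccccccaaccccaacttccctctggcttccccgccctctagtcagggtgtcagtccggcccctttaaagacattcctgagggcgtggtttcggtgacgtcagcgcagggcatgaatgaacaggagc
Efnb2, chr8:8661243-8661492, minus strand: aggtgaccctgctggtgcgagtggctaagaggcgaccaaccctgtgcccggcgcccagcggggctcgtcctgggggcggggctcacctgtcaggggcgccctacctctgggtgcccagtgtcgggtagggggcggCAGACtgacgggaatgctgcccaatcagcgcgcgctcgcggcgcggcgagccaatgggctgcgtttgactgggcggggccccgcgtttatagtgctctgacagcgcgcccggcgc
Sema3d held 2 matches and Efnb2 1, while Sema3c and Epha2 held none in these windows. The windows also differed in base composition, with a GC content of 78.4% for Sema3c, 72% for Efnb2, 55.6% for Epha2 and 46.8% for Sema3d. RefSeq gave 63 such windows for 47 of the 54 genes, and the letters stood in 32 of them, or 50.8%, against 42.2% of 32851 windows of all genes. By call, the share was 4 of 9 windows for genes called higher, 7 of 18 for genes called lower and 8 of 11 for tested genes that were not called. The letters CAGGTG, bound by SNAI and ZEB repressors, were in 10 of the 63 windows (15.9%, against 17.2% of all), and TGANTCA, bound by AP-1, in 3 (4.76%, against 6.75%). Both strands were searched for each motif. A match describes the letters in the window and is not a measured binding site.

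Class 3 semaphorins, the secreted ligands, were lower or not called with TGF-β1. Of 7 genes, 5 were tested, 3 were called lower and none higher. Sema3c, a ligand of neuropilins best known from septation of the cardiac outflow tract (mm9 chr5:17080099-17236086), measured 22.5, 21.2 and 20.8 FPKM in Control replicates 1 to 3 and 4.0, 3.76 and 4.56 FPKM in the TGF-β1 libraries. All 3 Control libraries lay above all TGF-β1 libraries, and the mean fell from 21.5 ± 0.885 to 4.11 ± 0.411 FPKM (SD, n = 3 in each group), or 5.24-fold. Its log2 change was -2.14 (SE 0.0906, adjusted p = 2.23e-05, limma). Sema3d, a relative known from patterning of the pulmonary veins (mm9 chr5:12383166-12588943), measured 3.77, 3.86 and 3.46 FPKM in Control and 0.101, 0.125 and 0.102 FPKM with TGF-β1. The groups were far apart, and the treated values rested on only about 7.01, 7.99 and 7.01 fragments, against 264, 270 and 236 in Control. The log2 change was -2.08 (SE 0.11, adjusted p = 4.69e-05, limma), and the mean FPKM in Control was 33.8-fold that with TGF-β1. Sema3b also fell, from a Control range of 2.97 to 3.49 FPKM to a TGF-β1 range of 0.775 to 1.79 FPKM (log2 change -0.94, adjusted p = 0.00704, limma). Its row carries a transcript annotated for nonsense-mediated decay.

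Sema3a, the growth cone collapse factor that binds neuropilin-1, was the most abundant class 3 semaphorin and was not called. It measured 30.9, 30.1 and 33.7 FPKM in Control and 24.9, 36.0 and 26.5 FPKM with TGF-β1, so the highest and the lowest value were both in treated cells. Its log2 change was -0.13 with a 95% interval of -0.48 to 0.22 (adjusted p = 0.499, limma). Without TGF-β1 replicate 2, the library with 36.0 FPKM, the change was -0.28 (adjusted p = 0.0496, limma, range 0.0496 to 0.896 over the alternatives). Sema3f, a ligand of neuropilin-2, was lowest in replicate 2 of both groups, at 11.9 FPKM in Control against 18.3 and 19.7 in the other Control libraries, and at 6.74 FPKM against 14.4 and 16.3 with TGF-β1. The groups overlapped and the change of -0.44 was not called (adjusted p = 0.332, limma). With replicate 2 as a batch term the same change was called (adjusted p = 0.0336, limma, range 0.0336 to 0.801). Sema3a, Sema3d and Sema3e lie next to each other on mouse chromosome 5, with 537 kb between Sema3d and Sema3a and 423 kb between Sema3a and Sema3e. Sema3e, at 0.164 to 0.442 FPKM in all libraries, was not called. Sema3b and Sema3f are 72.3 kb apart on chromosome 9.

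Membrane-bound semaphorins of class 4 to class 7 moved in both directions. Of 12 genes, 7 were tested, 3 were called lower and 2 higher. In all 7 the groups did not overlap, against 59.4% of all rows. Sema4b, the most abundant of them in Control (mm9 chr7:87331727-87371280), measured 12.2, 13.9 and 11.3 FPKM in Control and 4.35, 4.42 and 5.14 FPKM with TGF-β1. Every treated library lay under every Control library, with a log2 change of -1.25 (SE 0.109, adjusted p = 2.69e-04, limma) and a mean 2.68-fold lower. Sema6a, a ligand of plexin-A2 and plexin-A4, measured 3.51, 4.74 and 5.05 FPKM in Control and 2.43, 2.59 and 2.27 FPKM with TGF-β1. The groups were apart and it was called lower (log2 change -0.65, adjusted p = 0.00917, limma). Its row names a transcript of 652 nt, in which these values would rest on about 11.1 to 24.6 fragments, and with replicates 1 and 3 alone the adjusted p was 0.062 (range 0.0046 to 0.062 over the alternatives). Sema4d, the ligand of plexin-B1 also known as CD100, was called lower, from 2.04 to 4.28 FPKM in Control to 0.724 to 1.40 FPKM with TGF-β1 (log2 change -0.92, adjusted p = 0.0206, limma). This call was lost without Control replicate 3 (0.0536) or without TGF-β1 replicate 3 (0.062), with an adjusted p of 0.0119 to 0.062 over the alternatives.

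The rises in this class were small. Sema7a, a GPI-anchored semaphorin that binds integrin β1, was called higher, from 1.14 to 1.47 FPKM in Control to 1.95 to 3.01 FPKM with TGF-β1 (log2 change 0.55, adjusted p = 0.0245, limma). Sema4c, a ligand of plexin-B2, was called higher, from 4.32 to 5.12 FPKM to 5.49 to 7.72 FPKM (log2 change 0.42, adjusted p = 0.0396, limma). Neither call held without certain libraries. The adjusted p of Sema7a rose to 0.0665 without Control replicate 1, 0.0503 without Control replicate 2, 0.0654 without TGF-β1 replicate 1 and 0.0615 without TGF-β1 replicate 3 (range 0.0146 to 0.0665 over the alternatives). That of Sema4c rose to 0.11, 0.0571 and 0.0958 without Control replicates 1, 2 and 3 in turn, to 0.117 without TGF-β1 replicate 1 and to 0.102 without TGF-β1 replicate 3 (range 0.0202 to 0.157). Sema6c measured 2.36, 1.75 and 2.29 FPKM in Control and 1.45, 0.659 and 1.48 FPKM with TGF-β1. Its groups did not overlap, but the change of -0.53 was not called (95% interval -1.01 to -0.06, adjusted p = 0.0659, limma). It was called with replicate 2 as a batch term (0.0192), with replicates 1 and 3 alone (0.0473) and with a common sum of protein-coding rows (0.0301), with a range of 0.0192 to 0.156 over the alternatives. Its row names a non-coding transcript of 450 nt, in which these values would rest on at most 6.53 fragments per library. Sema4g, at 1.0 to 1.65 FPKM, was not called either. Summed over all 19 semaphorins, expression was 110, 108 and 115 FPKM in Control and 67.4, 67.6 and 71.7 FPKM with TGF-β1.

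Among the plexins, the semaphorin receptors, 4 of 6 tested genes were called lower and 1 higher. All 6 had groups that did not overlap, against 59.4% of all rows. Plxnd1, the receptor of Sema3e and a partner of neuropilins for other class 3 semaphorins (mm9 chr6:115904829-115945023), measured 4.75, 6.18 and 5.91 FPKM in Control and 14.6, 12.2 and 13.3 FPKM with TGF-β1. Each treated library lay above each Control library, with a log2 change of 1.12 (SE 0.119, adjusted p = 6.05e-04, limma) and a mean 2.37-fold higher. Plxna3, a partner of neuropilins (mm9 chrX:71574405-71590028), measured 18.1, 24.0 and 23.0 FPKM in Control and 6.00, 6.19 and 7.45 FPKM with TGF-β1. It was lower in every treated library, with a log2 change of -1.58 (SE 0.136, adjusted p = 2.57e-04, limma). Its row names a non-coding transcript of 427 nt, in which the TGF-β1 values would rest on about 14.2 to 18.3 fragments, and whether they stand for the whole gene is not stated.

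Plxnb2, a receptor of Sema4c and the most abundant of the 54 genes, measured 256, 220 and 194 FPKM in Control and 145, 76.6 and 150 FPKM with TGF-β1. The groups did not overlap and TGF-β1 replicate 2 was the lowest. It was called lower (log2 change -0.90, SE 0.273, adjusted p = 0.0357, limma), a call lost without Control replicate 1, 2 or 3, at 0.108, 0.0887 and 0.0582 (range 0.0144 to 0.108 over the alternatives). Its row, too, is a short non-coding transcript of 841 nt. Plxnb1, the receptor of Sema4d, fell from 7.43 to 9.15 FPKM in Control to 3.29 to 3.86 FPKM with TGF-β1 (log2 change -0.99, adjusted p = 6.91e-04, limma). Plxna2 fell from 3.42 to 4.06 FPKM to 1.91 to 2.63 FPKM (log2 change -0.59, adjusted p = 0.0104, limma). Plxna1 measured 19.6, 24.5 and 25.2 FPKM in Control and 26.3, 27.8 and 25.9 FPKM with TGF-β1. The treated libraries lay just above the Control libraries, and the change of 0.21 was not called (95% interval -0.06 to 0.47, adjusted p = 0.172, limma). Plxnb1 and Plxna1 each overlap a gene on the other strand, and whether strand was used in the FPKM estimate is not stated. The same limit holds for the tested genes Sema4d, Efna3, Efna4, Epha7, Ephb4 and Slit2.

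The ephrin-A ligands, held to the membrane by a lipid anchor, were called lower in 2 of 4 tested genes and higher in 1. Efna5, a ligand of EPHA receptors (mm9 chr17:62953533-63230666), measured 13.7, 14.9 and 16.3 FPKM in Control and 5.84, 6.82 and 6.08 FPKM with TGF-β1. All treated libraries were lower, by 2.39-fold on the means and by a log2 change of -1.14 (SE 0.0995, adjusted p = 2.75e-04, limma). Efna4 measured 16.8, 19.4 and 16.2 FPKM in Control and 11.5, 10.2 and 12.7 FPKM with TGF-β1, again with no overlap (log2 change -0.57, adjusted p = 0.00698, limma). Efna1, the main ligand of Epha2, measured 10.3, 15.3 and 12.4 FPKM in Control and 11, 10.3 and 10.9 FPKM with TGF-β1. Its groups overlapped and it was not called (log2 change -0.20, 95% interval -0.54 to 0.14, adjusted p = 0.286, limma). Efna3 was called higher, from 2.65 to 3.30 FPKM to 3.88 to 4.20 FPKM (log2 change 0.35, adjusted p = 0.0326, limma). Without Control replicates 1 and 3 in turn its adjusted p was 0.0825 and 0.0676, and without TGF-β1 replicates 1, 2 and 3 it was 0.0807, 0.079 and 0.0705 (range 0.0233 to 0.196 over the alternatives). Efna1, Efna3 and Efna4 form a cluster on mouse chromosome 3, with 32.8 kb between Efna1 and Efna3 and 10.4 kb between Efna3 and Efna4, and the changes of the 3 neighbours were -0.20, 0.35 and -0.57.

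Of the ephrin-B ligands, which cross the membrane and signal back into their own cell, Efnb2 (mm9 chr8:8617434-8661239) measured 19.2, 19.1 and 23.9 FPKM in Control and 42.5, 46.2 and 42.7 FPKM with TGF-β1. All 3 treated libraries were above all Control libraries, with a mean 2.11-fold higher and a log2 change of 1.05 (SE 0.108, adjusted p = 5.10e-04, limma). Efnb1 measured 21.4, 21.7 and 31.6 FPKM in Control and 23.4, 17.3 and 24.2 FPKM with TGF-β1. Its groups overlapped and it was not called (log2 change -0.19, 95% interval -0.66 to 0.28, adjusted p = 0.457, limma). The 3 ephrin-B genes summed to 41.3, 41.7 and 56.2 FPKM in Control and to 66.2, 64.1 and 67.6 FPKM with TGF-β1, whereas the 5 ephrin-A genes summed to 44.8, 53.6 and 48.6 FPKM and to 33.1, 32.1 and 34.3 FPKM.

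Efnb2, Sema4f and Sema6a were on the study's list of predicted miRNA targets. For Efnb2 and Sema4f the miRNA is shown for that reason with its seed (bases 2 to 8) in capitals, followed by each stretch of the mm9 transcript that matches it, with the matching bases in capitals. The levels of the miRNAs were not analysed here.
mmu-miR-130b-3p: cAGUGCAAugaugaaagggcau
Efnb2 3′UTR, chr8:8617738-8617761, minus strand: gcagtgtcatcccctTTGCACTgt
mmu-miR-351-5p: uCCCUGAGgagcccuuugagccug
Sema4f coding part, chr6:82867846-82867869, minus strand: ccgggtgaccagcctCTCAGGGaa
Sema4f 3′UTR, chr6:82861929-82861952, minus strand: tggggatatacctacCTCAGGGtt
The Efnb2 match starts at base 4012 of a 4324 nt transcript. The letters TTGCACT stood in 7.97% of 43420 annotated 3′UTRs, and CTCAGGG in 10.7% of these and in 13% of 55414 coding parts.

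EPHA receptors, the kinases that bind mostly ephrin-As, moved in both directions. Of 7 genes only Epha2, Epha4 and Epha7 passed the filter, and all 3 changed at least 2-fold. Epha2, a receptor common in epithelial and tumour cells (mm9 chr4:140857155-140885299), measured 6.39, 7.89 and 8.55 FPKM in Control and 20.0, 21.0 and 20.1 FPKM with TGF-β1. The groups were well apart, with a mean 2.67-fold higher and a log2 change of 1.32 (SE 0.112, adjusted p = 2.49e-04, limma). Epha4, which also binds ephrin-Bs (mm9 chr1:77363760-77511663), measured 10.6, 10.7 and 10.0 FPKM in Control and 2.97, 2.61 and 2.68 FPKM with TGF-β1. It was lower in every treated library, by 3.79-fold on the means and by a log2 change of -1.61 (SE 0.086, adjusted p = 4.80e-05, limma). Epha7, the most abundant EPHA gene in Control (mm9 chr4:28740281-28894649), measured 18.4, 18.7 and 17.1 FPKM in Control and 7.88, 7.43 and 7.37 FPKM with TGF-β1. It fell 2.40-fold on the means with no overlap (log2 change -1.16, SE 0.0767, adjusted p = 1.04e-04, limma). With TGF-β1 the order of the EPHA genes by mean FPKM was therefore changed, from Epha7, Epha4 and Epha2 in Control (18.1, 10.4 and 7.61) to Epha2, Epha7 and Epha4 (20.3, 7.56 and 2.75), and no neighbours in either order overlapped. The sum of the 7 EPHA genes moved less than its members, from 36.3, 39.1 and 36.7 FPKM in Control to 31.5, 31.8 and 30.6 FPKM with TGF-β1.

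Among EPHB receptors, which bind ephrin-Bs, Ephb6, a member that lacks kinase activity (mm9 chr6:41555481-41570508), measured 6.44, 8.59 and 12.1 FPKM in Control and 1.42, 2.31 and 1.77 FPKM with TGF-β1. Control replicate 3 was the highest, and the groups did not overlap, and the gene was called lower (log2 change -1.80, SE 0.231, adjusted p = 0.00129, limma). Ephb2 was called higher, from 0.511 to 0.776 FPKM in Control to 1.24 to 1.97 FPKM with TGF-β1 (log2 change 0.67, adjusted p = 0.0141, limma). Ephb4, the receptor of ephrin-B2 known from veins and the most abundant EPHB gene, measured 18.8, 19.1 and 21.0 FPKM in Control and 15.9, 18.9 and 16.5 FPKM with TGF-β1. Its groups overlapped through TGF-β1 replicate 2, and the change of -0.19 was not called (95% interval -0.42 to 0.04, adjusted p = 0.141, limma). With a common sum of protein-coding rows Ephb4 was called lower (adjusted p = 0.027, limma, range 0.027 to 0.355 over the alternatives). Ephb3, at 4.89 to 7.10 FPKM, was not called (log2 change 0.22).

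**Figure D2:**
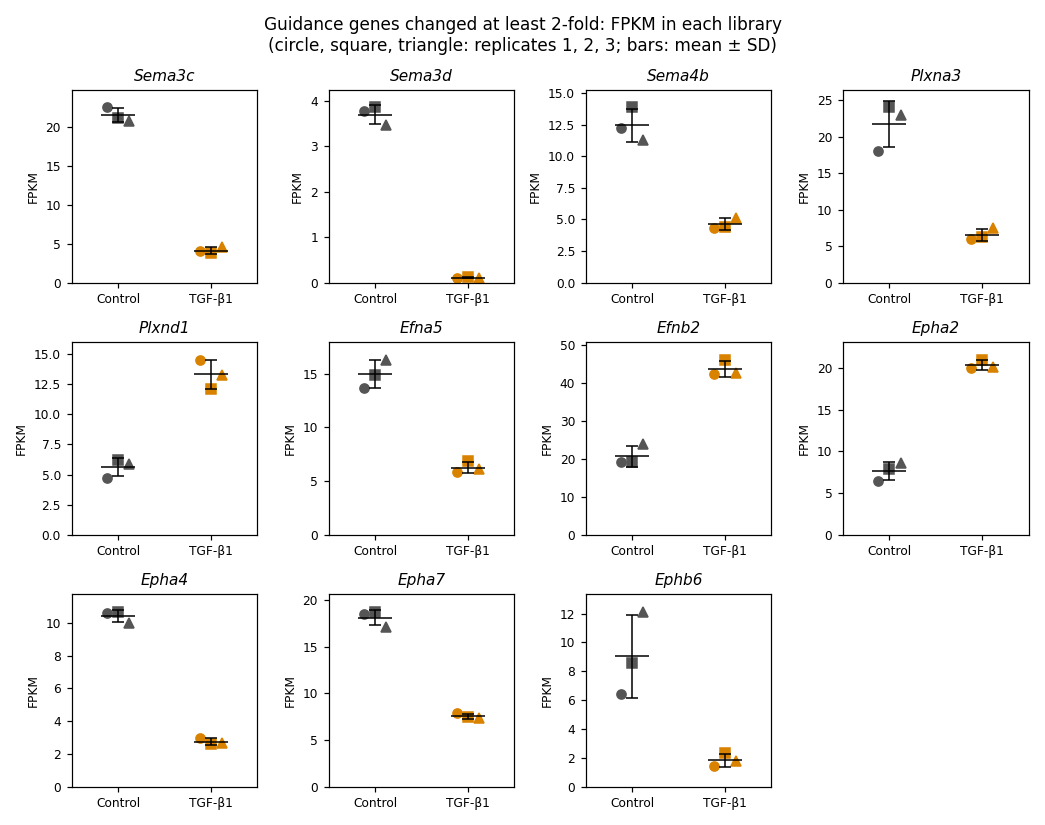
FPKM in each library for the 11 guidance genes called changed at least 2-fold, with Control in grey, TGF-β1 in orange, a marker shape for each replicate number and bars for mean ± SD (n = 3). In each panel the 3 Control and 3 TGF-β1 values lie apart, with 8 genes lower and Plxnd1, Efnb2 and Epha2 higher.

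SLIT and ROBO genes were few at measurable levels, and neither tested gene was called. Slit2, the secreted ligand, measured 6.87, 6.97 and 7.08 FPKM in Control and 6.48, 5.51 and 5.16 FPKM with TGF-β1. The treated libraries were all lower, but the change of -0.25 was not called (95% interval -0.49 to -0.01, adjusted p = 0.0797, limma). It was called when libraries were scaled to a common upper quartile (adjusted p = 0.0414, limma) or to a common sum of protein-coding rows (0.0149), with a range of 0.0149 to 0.263 over the alternatives. The row is a transcript annotated for nonsense-mediated decay. Robo1, its receptor, measured 3.26, 2.99 and 3.98 FPKM in Control and 4.22, 4.21 and 4.46 FPKM with TGF-β1. The treated libraries were all higher, and the change of 0.27 was not called (95% interval -0.0043 to 0.54, adjusted p = 0.0943, limma), but it was called without Control replicate 3 (adjusted p = 0.0323, limma, range 0.0323 to 0.472).

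The other 21 guidance genes averaged under 1 FPKM and were tested in the same fit without the filter. Of these, 6 were called, 3 higher and 3 lower, against 11.7% of the 7832 rows under the filter. Plxna4, a receptor of Sema3a with neuropilin-1 and of Sema6a (mm9 chr6:32094565-32538192), measured 0.0586, 0.139 and 0.0974 FPKM in Control and 1.74, 1.44 and 1.37 FPKM with TGF-β1. These values rested on about 8.04, 19.1 and 13 fragments in Control and 236, 181 and 184 with TGF-β1, and the groups were far apart. Its log2 change was 1.20 (SE 0.0867, adjusted p = 3.18e-04, limma) and its mean FPKM 15.4-fold higher, but 3 annotated genes lie on the other strand within it. Sema3g, a secreted semaphorin known from endothelium, measured 1.02, 1.02 and 1.13 FPKM in Control and 0.0630, 0.0910 and 0.107 FPKM with TGF-β1. It was lower in all treated libraries, which held only about 3, 4 and 5 fragments (log2 change -0.92, adjusted p = 2.54e-04, limma). Sema4a, known from immune cells, measured 1.23, 0.985 and 1.75 FPKM in Control and 0.239, 0.155 and 0.353 FPKM with TGF-β1, with no overlap (log2 change -0.88, adjusted p = 0.00564, limma).

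The remaining 3 calls under the filter were less firm. Sema5a, which carries thrombospondin repeats, measured 1.19, 1.29 and 1.21 FPKM in Control and 0.599, 0.893 and 0.458 FPKM with TGF-β1 (log2 change -0.44, adjusted p = 0.0352, limma). The groups were apart, but the adjusted p was 0.0822, 0.0958 and 0.0797 without Control replicates 1, 2 and 3 in turn, 0.108 without TGF-β1 replicate 1 and 0.0856 without TGF-β1 replicate 3 (range 0.0138 to 0.108 over the alternatives). Sema4f measured 0.0466, 0 and 0.0239 FPKM in Control, or about 2, 0 and 1 fragments, and 0.305, 0.432 and 0.476 FPKM with TGF-β1, or about 13, 17 and 20 fragments. It was higher in every treated library (log2 change 0.45, adjusted p = 0.00307, limma), and with replicates 1 and 3 alone the adjusted p was 0.0605 (range 0.00307 to 0.0605). Slit1 was listed at 0 in all 3 Control libraries and measured 0.178, 0.136 and 0.271 FPKM with TGF-β1, from about 10.7, 7.53 and 16.1 fragments. An exact 0 in such a table can be a failed estimate, so no fold is given (adjusted p = 0.0139, limma, and 0.0515 with replicates 1 and 3 alone, range 0.00631 to 0.0515). The 15 that were not called were Sema3e, Sema6b, Sema6d, Plxnb3, Plxnc1, Efna2, Efnb3, Epha1, Epha3, Epha5, Epha10, Ephb1, Slit3, Robo2 and Robo3, and of these only Efna2 and Epha5 exceeded 1 FPKM in any library, reaching 1.36 and 1.62 FPKM in Control.

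**Figure D3:**
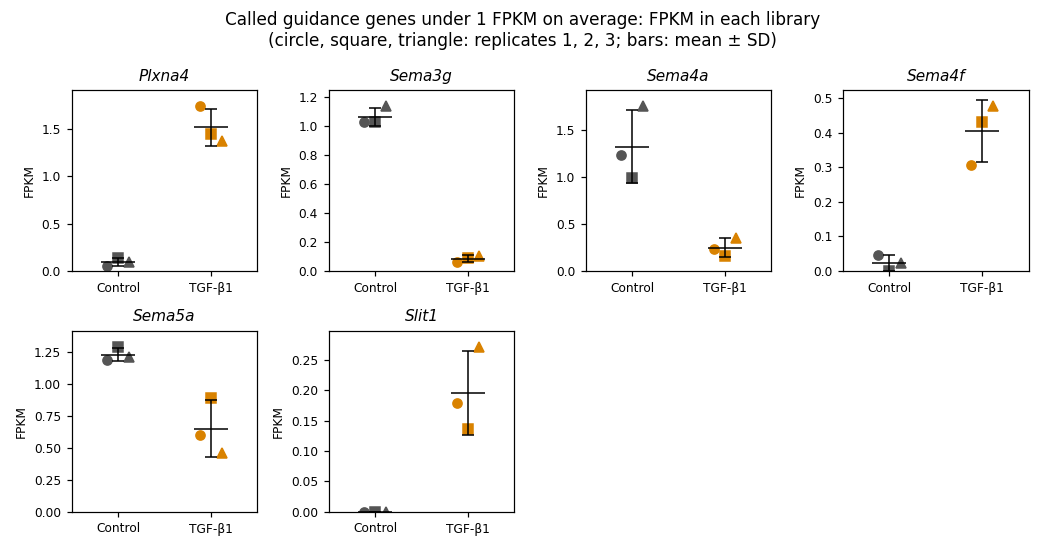
FPKM in each library for the 6 guidance genes that averaged under 1 FPKM and were called in the fit without the filter, with Control in grey, TGF-β1 in orange and bars for mean ± SD (n = 3). Plxna4, Sema4f and Slit1 were higher with TGF-β1 and Sema3g, Sema4a and Sema5a lower, and Slit1 was listed at 0 in all Control libraries.

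Counted by library, fewer guidance genes were expressed after TGF-β1. At a threshold of 3 FPKM, 26, 28 and 28 of the 54 were expressed in Control and 22, 22 and 23 with TGF-β1, and at 10 FPKM the numbers were 15 in each Control library and 11, 10 and 11 with TGF-β1. These counts are a description with no test. The same counts over all rows are not given, so whether the lower number is particular to these genes was not tested.

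Genes that act with these ligands and receptors were taken from 4 lists of known co-receptors and effectors. The lists were chosen with earlier results of these data known, so their shares are a description with no test. More of the listed genes were called higher than lower. Of 108 listed genes, 103 were in the table and 86 tested, with 33 called higher (38.4%, against 24.5% of all rows) and 18 lower (20.9%, against 23.6%) and a median log2 change of 0.18, beside -0.0169 over all rows. Of the 86, 10 were called changed at least 2-fold, beside 13.9% of all rows. For semaphorins, 12 of 34 co-receptors and effectors were called higher (35.3%) and 7 lower (20.6%). Itgb1, the integrin β1 that Sema7a binds, rose from 259 ± 9.96 to 1026 ± 16.4 FPKM (log2 change 1.98, adjusted p = 1.82e-05, limma), while Itga1, its α1 partner, fell from 6.55 ± 0.626 to 1.44 ± 0.321 FPKM (log2 change -1.64). Both neuropilins were well above the filter. Nrp1 measured 99.9, 96.4 and 87.9 FPKM in Control and 109, 132 and 104 FPKM with TGF-β1, all treated libraries being higher, with a log2 change of 0.27 that was not called (adjusted p = 0.0974, limma). Nrp2 was called slightly lower, from 8.95 ± 0.745 to 7.01 ± 0.556 FPKM (log2 change -0.31, adjusted p = 0.0389, limma).

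Among EPH and ephrin effectors, 8 of 24 were called higher (33.3%, against 24.5% of all rows) and 5 lower (20.8%, against 23.6%). Of these 24, 0 were called changed at least 2-fold. The adaptor Crk rose from 15.1 ± 1.5 to 30.5 ± 1.36 FPKM (log2 change 0.97), and the PDZ protein Pick1 fell from 16.2 ± 1.75 to 9.53 ± 1.87 FPKM (log2 change -0.71, adjusted p = 0.00895, limma). Of 19 SLIT and ROBO effectors, 11 were called higher (57.9%) and 3 lower (15.8%). The actin regulator Enah rose from 12.4 ± 0.776 to 32 ± 2.17 FPKM (log2 change 1.31, adjusted p = 1.07e-04, limma), and the cadherin Cdh2 fell from 114 ± 11.2 to 63.8 ± 2.87 FPKM (log2 change -0.83, adjusted p = 7.81e-04, limma). The list of netrins, their receptors and related genes, among them repulsive guidance molecules, Flrt2 and Flrt3, held 9 tested genes. Of these, 2 were called higher (22.2%), Unc5b and Flrt2, and 3 lower (33.3%). The netrin receptor Unc5b measured 3.13, 3.79 and 2.66 FPKM in Control and 35.3, 30.1 and 35.4 FPKM with TGF-β1. The treated libraries were far above the others (log2 change 3.05, adjusted p = 2.15e-05, limma), while Rgma fell from 8.32 ± 0.838 to 2.61 ± 0.643 FPKM (log2 change -1.38, adjusted p = 8.54e-04, limma). Of the 19 genes on this list, 16 were in the table, and those under the filter were left out. Dcc, which the paper names among its most down-regulated genes, was one of these.

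**Figure D4:**
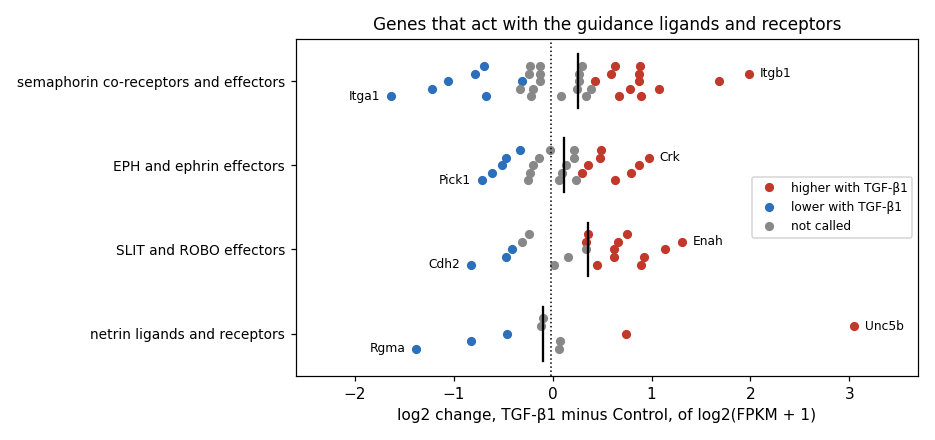
Log2 change, TGF-β1 minus Control, on the log2(FPKM + 1) scale for the 86 tested genes of 4 lists that act with the guidance ligands and receptors, red where called higher, blue where called lower and grey where not called. Black bars are list medians, the dotted line is the median of all rows at -0.0169, and Unc5b at 3.05 lies furthest from it.

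The summed levels of markers of other cell types also differed between the groups. Of 9 endothelial markers in the table, 8 were under 1 FPKM in every library, Kdr, Cdh5 and Erg were listed at 0 in all Control libraries, and the list summed to 5.10 to 6.72 FPKM in Control and 3.24 to 4.71 FPKM with TGF-β1. Egfl7, the only one above 1 FPKM, was not called (log2 change -0.45, adjusted p = 0.11, limma). Of 6 macrophage and leukocyte markers, 4 were under 1 FPKM in every library and Ptprc was listed at 0 in Control. Their sum was 8.26 to 9.69 FPKM in Control and 2.43 to 3.53 FPKM with TGF-β1, mostly through Csf1r (6.27 to 0.411 FPKM on average), while Cd68 was not called. Tubular markers, 5 in the table, summed to 115 to 148 FPKM and 7.47 to 9.03 FPKM. Cdh16, the highest of them, averaged 130 FPKM in Control and 6.30 FPKM with TGF-β1, and Krt18 went the other way, from 0.279 to 1.57 FPKM. Neuronal and glial markers, 6 in the table, summed to 4.32 to 6.87 FPKM and 9.16 to 9.91 FPKM. Their part in the changes of the guidance genes was not tested.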

How the data were processed

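RNA-Seq of 3 Control and 3 TGF-β1 libraries of primary mouse mesangial cells was used, with groups and replicate numbers taken from the sample labels. Reads were mapped by the authors to mm9 with TopHat (TopHat2 2.0.11 in the submitters' processing notes), and the deposited values are FPKM estimated with Cufflinks, in a column for each library. A further scaling between libraries is not described. Each row carries a transcript identifier and a symbol. Whether a row holds its gene or only that transcript, and whether strand was used, is not stated. Of the 54 rows, 8 name a transcript not annotated as protein coding, 17 overlap a gene on the other strand and 6 one on the same strand. All 54 were found in the mm9 annotation GENCODE M1, which gave the coordinates of genes and transcripts. The authors tested counts with DESeq; counts were not used here.

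Rows with a mean of at least 1 FPKM entered a linear model of log2(FPKM + 1) in limma 3.58.1 (R 4.3.3) with moderated variances that follow a mean-variance trend and no covariate. Tests were two-sided, and p-values were adjusted by Benjamini-Hochberg over all 11898 rows tested. Genes under the filter came from the same fit over all 19730 rows. The procedure was tested on simulated data first. Depth is approximate. It rests on FPKM values of single-transcript genes being whole multiples of 1 fragment, which 99.4 to 99.9% of 636 to 724 values per library were to within 0.1 of a fragment.

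The genes, the lists and the motifs were chosen with earlier results of these data known, so no p was adjusted over a list alone. Values in every library are given for genes changed at least 2-fold, the most abundant gene and the most abundant uncalled gene of each family, called genes under the filter, and Sema4f, Sema6a and Efnb2; for each list of co-receptors and effectors, the largest called rise and fall plus Nrp1 and Nrp2 are named. Alternatives varied the pseudocount, the filter, the scaling, the trend, the replicate block and the libraries. Promoter windows (GRCm38.p6) and miRNAs are from RefSeq. Tables and figures were made in Python 3.11.15 with pandas 2.3.3, numpy 2.4.6 and matplotlib 3.10.9, and correlations with scipy 1.17.1. The levels of 1 further marker list are not reported here.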

Additional observations from a re-analysis of the deposited data

How the results depend on the processing

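Of the 22 guidance genes called changed, 16 remained called under every alternative in which they were tested, among them all 11 that changed at least 2-fold. For 12 of the 16 that was 17 alternatives (16 planned and 1 chosen after seeing the data), and for Sema3b, Sema3d, Plxna2 and Ephb2 it was 16, since they did not pass a filter of 3 FPKM. Sema4c, Sema4d, Sema6a, Sema7a, Plxnb2 and Efna3 lost their call under at least 1, and 6 tested genes that were not called were called under at least 1. Among the 33 genes tested, no direction reversed, whereas the changes of Sema3e, Epha1 and Ephb1, under the filter and not called, took either sign. With a pseudocount of 5 in place of 1, the number changed at least 2-fold was 4, and with 0.1 it was 15. Scaling to a common sum of protein-coding rows (those of 300 nt or more) left 4 genes called higher and 18 lower, beside 2015 higher and 3927 lower of all 11898 rows. When each library was left out in turn, 4 to 6 genes were called higher, 13 to 16 lower, 18 to 22 in all, 10 to 14 at least 2-fold, and 41 to 48 of the genes on the co-receptor and effector lists, against 51 with all libraries. The lowest number of guidance genes called higher, 4, came without Control replicate 1, TGF-β1 replicate 1 or TGF-β1 replicate 3. Of the 11898 rows in all, 4419 to 5446 were called with 1 library left out, against 5721 with all libraries. The number of guidance genes expressed in a library differed by -5 (TGF-β1 minus Control) at 3 FPKM, by -4.33 at 10 FPKM and by -3.67 at 1 FPKM. With the replicate number as a replicate block, 22 genes were called, 5 higher and 17 lower, and 11 changed at least 2-fold. Over all 11898 rows the block gave 2728 higher and 2663 lower. The block added the calls of Sema3f (adjusted p 0.0489, limma) and Sema6c (0.0394) and lost those of Sema4c (0.0795) and Efna3. The numbers were not taken as pairs. The correlations of same-numbered libraries in their deviations from the group means over 11898 rows were 0.0921, 0.232 and 0.0853, highest for replicate 2. Control replicate 1 correlated best with TGF-β1 replicate 3 (0.117), and all other pairs of unlike number were negative, from -0.194 to -0.016. Whether the numbers mark batches was not tested. The cause of these shifts was not tested. Depth limits the genes under 1 FPKM, since 1 fragment in a 4 kb transcript was worth 0.0238 to 0.026 FPKM.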
